A study of Mus musculus with 9 samples.

Results

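All 4 libraries of LSK cells were compared with all 5 libraries of Ly6G-positive neutrophils, 9 of the 9 bulk RNA-seq libraries of the study, with genotype as a covariate. Both populations came from the bone marrow of mice aged 4 to 12 weeks. There were 2 LSK libraries of Spop(+/+) mice (WT), 2 LSK libraries of Spop(D/D) mice (knockout, KO), 2 neutrophil libraries of Spop(+/+) mice and 3 neutrophil libraries of Spop(D/D) mice. Which part of Spop is deleted, and with which Cre driver, is not stated in the labels. One LSK library, knockout replicate 2, carries a cell type entry of neutrophil beside a title and source of LSK, and its Ly6g count was 0, as in the other 3 LSK libraries. Whether replicates of a group came from different mice is not labelled, and the spread behind every p-value may therefore be technical in part. The labels do not state a sex either.

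LSK cells are the marrow fraction that lacks lineage antigens and carries Sca-1 (Ly6a) and the stem cell factor receptor Kit. The fraction holds haematopoietic stem cells and multipotent progenitors. Neutrophils arise from such progenitors through promyelocytes, which make the proteases of primary granules, and myelocytes, which make the antimicrobial proteins of secondary granules. Later stages stop dividing, segment the nucleus and acquire the receptors and oxidase of the circulating cell, and Ly6G is carried from the middle of this path onward, so a Ly6G sort of marrow holds more than segmented cells.

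Population and count table coincide: the LSK libraries are in one deposited table and the neutrophil libraries in another, so population and the making of the table cannot be told apart. For that reason a gene was called only with an adjusted p under 0.05 in edgeR's quasi-likelihood test and a fitted difference of at least 4-fold (log2 of 2). Levels are given as CPM, counts relative to the library total, scaled by TMM factors, which set the libraries on one scale by their shared genes. These levels are not per length and are compared only within a gene, and they rest on a joint scaling of tables made separately. LSK values are given in the order WT-1, WT-2, KO-1, KO-2, and neutrophil values in the order WT-1, WT-2, KO-1, KO-2, KO-3. In bulk libraries, fewer cells of a type and less RNA per cell cannot be told apart.

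The LSK libraries held between 18827892 and 20264417 counts, the neutrophil libraries between 21012702 and 27434086. Transcript pools differed in evenness: the 10 most abundant genes took 2.78% to 3.71% of counts in LSK cells and 15.6% to 48.3% in neutrophils, and 1158 to 1399 genes made up the first 50% of counts in LSK cells against 13 to 418 in neutrophils. Spop itself was at 227, 235, 186 and 186 CPM in LSK cells and at 218, 300, 251, 275 and 308 CPM in neutrophils. The neutrophil libraries labelled knockout were thus not below the wild-type ones in this count over the whole gene, which checks a label only if the deleted part is counted. Between the populations Spop differed by 0.39 on the log2 scale (SE 0.20, edgeR adjusted p 0.13).

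Some libraries stood apart. Neutrophil WT-2 had the lowest summed level of 12 neutrophil markers, 59961 CPM against 361411 to 988002 in the other 4, and the highest B cell markers (10111 CPM against 33.6 to 686), T and NK cell markers (2706 against 96.2 to 303) and dendritic cell and MHC class II markers (41264 against 794 to 2074). None of the 12 B cell, 14 T and NK cell or 13 dendritic cell and MHC class II markers was at 0 in all neutrophil libraries, and the part of such cells in the results was not tested. Neutrophil KO-3 had the highest erythroid markers, 27362 CPM against 6.16 to 5792. The LSK-type markers summed to 1713 to 3074 CPM in LSK cells and to 73.8, 645, 82.9, 503 and 62.0 CPM in neutrophils. Of the neutrophil sums, Ly6a alone made up 426 of 645 CPM in WT-2 and 482 of 503 CPM in KO-2. Neutrophil markers summed to 136 to 208 CPM in LSK cells. The 4 Y-linked genes Ddx3y, Eif2s3y, Kdm5d and Uty, named after their values were seen, were read in all 4 LSK libraries and all 3 knockout neutrophil libraries, at 7.57 CPM or more, and were at 0.06 CPM or less in both wild-type neutrophil libraries, where Xist stood at 17.2 and 139.6 CPM against 0.30 or less elsewhere. In neutrophils genotype and the sex-linked genes therefore cannot be told apart. Among the wild-type libraries population and the sex-linked genes cannot be told apart either. This holds for every comparison of wild-type libraries alone, that of neutrophil WT-1 with wild-type LSK cells included. The knockout libraries alone, which all carried Y-linked reads, gave 2039 genes higher in neutrophils and 2315 higher in LSK cells.

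**Figure D1:**
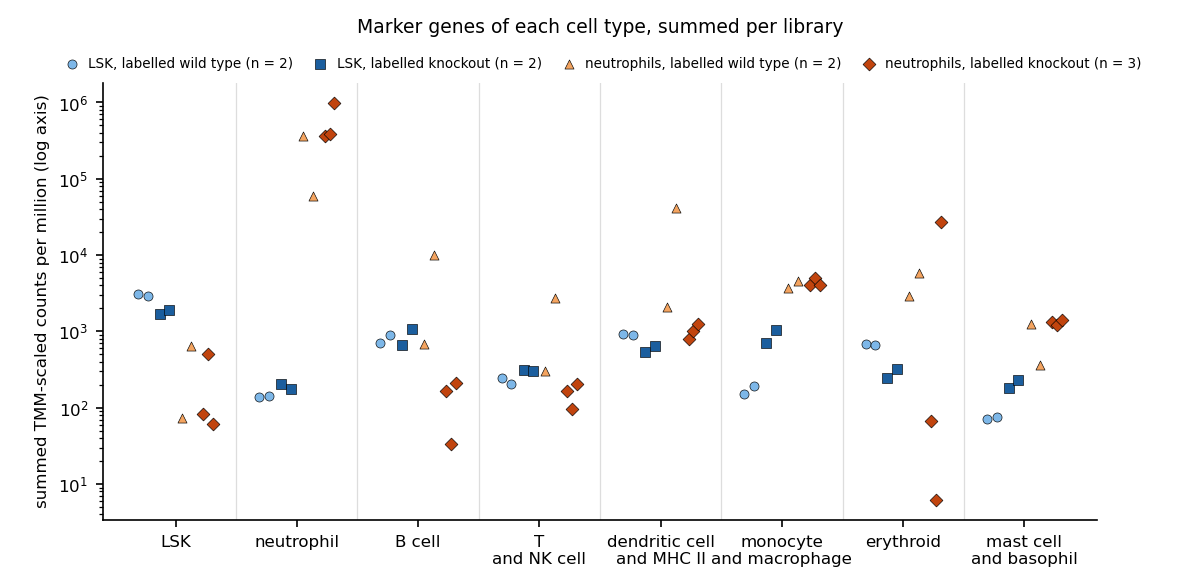
Summed TMM-scaled CPM (log axis) of the marker genes of 8 cell types, 1 point per library, by population and labelled genotype. The LSK and neutrophil marker sums separate the 4 LSK from the 5 neutrophil libraries, and the wild-type neutrophil library at 41264 CPM of dendritic cell and MHC class II markers is WT-2.

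Among 13822 genes tested, 1742 were called higher in neutrophils (12.6% of those tested) and 2051 higher in LSK cells (14.8%), so that 27.4% were called in either direction. The shares of 12.6% and 14.8% are the background for each count of list members from this fit below. In 1415 and 1845 of them, respectively, the 4 LSK values and the 5 neutrophil values did not overlap, against 45.2% of all genes tested. In neutrophil WT-1 against the 2 wild-type LSK libraries alone, a value with no test, 1389 and 1651 of them differed at least 4-fold the same way, and 26 and 0 had the opposite sign. The 4 wild-type libraries fitted alone gave 0 and 0 calls with edgeR, 1272 and 1231 genes at an unadjusted p under 0.05 and 4-fold, and 1429 and 1065 calls with DESeq2. Scaling set the balance between directions: with TMM 45.9% of called genes were higher in neutrophils, and with library totals alone 16.1% were (904 against 4722 genes). The median log2 difference of all genes was −0.16 with TMM, −0.25 with upper-quartile factors, −0.09 with RLE size factors and −1.43 with library totals. A total of 113 genes called higher in neutrophils had no read in any LSK library, and 276 called higher in LSK cells had none in any neutrophil library.

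Before the values, the promoters of members that stand at the far ends of the comparison are shown, from RefSeq on GRCm38.p6, as the 250 bases before the transcript start. Ngp, Ltf, S100a8 and S100a9 are among the genes with the largest differences towards neutrophils, and in these capitals mark TTGCNNAA, a C/EBP-type sequence, or TATAAA, searched on both strands.
Ngp, chr9:110419558-110419807, plus strand: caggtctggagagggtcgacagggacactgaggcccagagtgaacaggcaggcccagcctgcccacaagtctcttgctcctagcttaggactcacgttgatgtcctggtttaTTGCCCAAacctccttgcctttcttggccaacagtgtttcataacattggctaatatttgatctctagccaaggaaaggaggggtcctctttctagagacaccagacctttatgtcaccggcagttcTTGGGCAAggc
Ltf, chr9:111019042-111019291, plus strand: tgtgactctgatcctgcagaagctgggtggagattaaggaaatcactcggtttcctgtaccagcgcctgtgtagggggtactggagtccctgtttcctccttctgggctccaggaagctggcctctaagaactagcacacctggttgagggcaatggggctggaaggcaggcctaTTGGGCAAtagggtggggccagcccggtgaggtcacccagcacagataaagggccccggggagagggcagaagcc
S100a8, chr3:90668821-90669070, plus strand: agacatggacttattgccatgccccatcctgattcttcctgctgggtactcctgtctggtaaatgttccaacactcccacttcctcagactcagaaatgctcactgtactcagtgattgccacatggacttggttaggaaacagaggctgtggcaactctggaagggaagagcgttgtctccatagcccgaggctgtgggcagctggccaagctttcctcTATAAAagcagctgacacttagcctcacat
S100a9, chr3:90695722-90695971, minus strand: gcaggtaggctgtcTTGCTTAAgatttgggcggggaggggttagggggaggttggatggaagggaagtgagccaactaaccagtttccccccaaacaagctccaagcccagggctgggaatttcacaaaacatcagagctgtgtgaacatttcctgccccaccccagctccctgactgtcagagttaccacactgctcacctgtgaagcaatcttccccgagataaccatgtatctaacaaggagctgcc
Ngp held 2 matches of TTGCNNAA, Ltf and S100a9 held 1 each, and S100a8 held 1 TATAAA ending 24 bases before the start. Gnl3, a nucleolar GTPase gene, and Cd34 were among the members higher in LSK cells, and in these capitals mark the CpG dinucleotides.
Gnl3, chr14:31019132-31019381, minus strand: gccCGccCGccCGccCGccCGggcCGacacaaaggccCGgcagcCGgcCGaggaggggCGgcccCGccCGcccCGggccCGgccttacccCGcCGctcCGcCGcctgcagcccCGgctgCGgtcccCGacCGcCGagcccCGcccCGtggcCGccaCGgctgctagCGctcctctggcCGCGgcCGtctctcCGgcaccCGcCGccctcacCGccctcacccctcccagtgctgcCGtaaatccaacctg
Cd34, chr1:194938571-194938820, plus strand: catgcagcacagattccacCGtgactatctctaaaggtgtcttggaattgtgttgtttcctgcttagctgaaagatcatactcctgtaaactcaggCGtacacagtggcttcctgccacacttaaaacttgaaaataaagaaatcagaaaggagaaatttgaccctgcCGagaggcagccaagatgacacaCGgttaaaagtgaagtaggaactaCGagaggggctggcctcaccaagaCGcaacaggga
Gnl3 held 36 CpG in 250 bases, and Cd34 held 6.

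Over the whole window of 300 bases (250 before and 50 after the start), 1214 of the 1742 genes higher in neutrophils and 1550 of the 2051 higher in LSK cells matched the RefSeq table, with 1566 and 2026 promoters. TTGCNNAA was present in 11.6% of promoters of the first group, 8.49% of the second, 8.77% of those of all tested genes and 10.8% of all RefSeq promoters. TATAAA was present in 10.6%, 7.75%, 7.24% and 13.6%, in the same order, and GAGGAAG, an ETS-type sequence of the kind PU.1 binds, in 18.5%, 12.2%, 13.8% and 13.6%. CACGTG, the E-box bound by Myc and Max, was present in 8.24%, 11.2%, 9.60% and 7.15%. At least 10 CpG were present in 54.2% of promoters of genes higher in neutrophils, 69.2% of those higher in LSK cells and 75.4% of those of all tested genes. TATAAA and TTGCNNAA overlapped in 0 promoters. These shares describe letters in a window and were not tested.

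The genes behind the sort separated the populations except for Ly6a. Ly6g, which encodes the antigen of the neutrophil sort (GRCm38, chr15:75155240-75159126, plus strand), had 0 reads in every LSK library and 831, 132, 1110, 542 and 1339 CPM in neutrophils, at least 8643-fold higher against a floor of 3 reads per library. Kit was at 591, 631, 361 and 393 CPM in LSK cells and at 36.0, 61.9, 37.0, 12.8 and 14.6 CPM in neutrophils, lower in neutrophils by a log2 difference of −3.91 (SE 0.38, edgeR adjusted p 0.00013). Cd34, a sialomucin of progenitors, was at 1146, 967, 703 and 798 CPM against 9.53, 3.92, 2.48, 2.44 and 0.45 CPM (log2 −8.05, SE 0.62). For both genes every LSK library was above every neutrophil library. Ly6a (Sca-1) was at 101, 94.8, 115 and 139 CPM in LSK cells and at 4.48, 426, 34.6, 482 and 40.9 CPM in neutrophils, so that WT-2 and KO-2 were above all LSK libraries and the other 3 below them (log2 0.81, SE 1.08, 95% interval −1.63 to 3.26). Ly6a is known to be inducible by interferon, and the 36 interferon-stimulated genes listed here summed to 3563, 3142, 8481, 18299 and 10698 CPM in the same neutrophil libraries. That sum was highest in KO-2 but lowest in WT-2, the other library with Ly6a above all LSK libraries. WT-2 also had the highest B cell, T and NK cell and dendritic cell markers. The part of interferon or of such cells in the Ly6a values was not tested.

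Secondary-granule and late neutrophil genes made the largest difference. All 19 tested members of the secondary-granule list of 20 were higher in neutrophils, with a median log2 difference of 11.33 beside −0.16 for all genes, and so were 29 of 30 late neutrophil genes (median 8.10). Ptx3 was not tested for too few reads. Ltf, which encodes the iron-binding lactoferrin, was at 1.24, 0.82, 0.16 and 0.13 CPM in LSK cells and at 45964, 3462, 41528, 41807 and 21550 CPM in neutrophils (log2 16.06, SE 1.50, edgeR adjusted p 0.00011). Ngp, neutrophilic granule protein, was at 4.42, 4.40, 0.84 and 0.13 CPM against 106031, 12036, 76046, 86430 and 141338 CPM (log2 15.68, SE 1.70). Camp, the cathelicidin, was at 0.67, 1.89, 1.46 and 0.03 CPM against 55778, 6995, 17639, 11558 and 80634 CPM (log2 15.10, SE 1.72). In all 3 genes neutrophil WT-2 was the lowest neutrophil library and still far above the LSK libraries. Without WT-2 the secondary-granule count stayed at 19 of 19 and the median was 11.67, and without both WT-2 and KO-3 it was 19 of 19 with a median of 11.25.

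S100a8 and S100a9 encode the subunits of calprotectin. S100a8 was at 5.09, 8.81, 33.0 and 5.45 CPM in LSK cells and at 51660, 17605, 92868, 84309 and 431031 CPM in neutrophils, and S100a9 differed by 13.40 on the log2 scale (SE 1.35). Library KO-3 was the highest for S100a8, and the groups did not overlap in either gene. Retnlg, a resistin-like gene of late neutrophils, had 17 reads over the LSK libraries and was at 6827, 1222, 14517, 18656 and 18568 CPM in neutrophils. Mmp9, the gelatinase of tertiary granules, was at 1.13 CPM or less in LSK cells and at 6425, 458, 11989, 10860 and 2996 CPM in neutrophils. The stefin genes Stfa2l1 and Stfa1 had 0 LSK reads, and Stfa2l1 was at 25, 17.6, 228, 517 and 194 CPM in neutrophils. They have near-identical copies, so that reads may be split between them. Among neutrophils Stfa1 had 8.32 and 1.96 CPM in WT-1 and WT-2 against 192, 790 and 196 CPM in the 3 libraries labelled knockout.

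Primary-granule genes behaved otherwise. Of 10 tested members of the list 2 were higher in neutrophils, none was higher in LSK cells, and the median was 1.49. The 2 were Fcnb (log2 9.55) and Serpinb1a (log2 2.70, and 1.30 with library totals alone). Neither is one of the granule proteases or myeloperoxidase. Summed over the list, LSK libraries held 1467, 1717, 10319 and 12275 CPM and neutrophil libraries 20602, 2335, 13316, 6760 and 13720 CPM. Mpo, myeloperoxidase, was at 566, 796, 5587 and 7260 CPM in LSK cells and at 6582, 295, 3862, 642 and 1099 CPM in neutrophils (log2 −0.13, SE 1.20, 95% interval −2.83 to 2.57, edgeR adjusted p 0.94). The LSK libraries labelled knockout were thus within or above the range of the neutrophils, and the wild-type LSK libraries lay below 4 and 3 of the 5 neutrophil libraries, respectively. Elane, neutrophil elastase, was at 69.6, 144, 1631 and 1881 CPM against 5280, 471, 2575, 719 and 2974 CPM (log2 2.02, SE 1.17, adjusted p 0.17 with edgeR and 0.028 with DESeq2). Prtn3, Ctsg and Ms4a3 likewise overlapped between populations, with log2 differences of 1.12, −0.14 and 1.31.

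The primary-granule genes were also compared within labelled genotype. A fit of neutrophil WT-1 against the wild-type LSK libraries has 1 library in an arm and assumes that it varies like the LSK ones. In it all 10 differences were positive (median 3.12), among them Mpo (log2 3.31) and Ctsg (log2 2.69), whose sign turned. With WT-2 included, edgeR called 0 genes of any kind in the wild-type libraries, so its 0 of these 10 cannot tell them from other genes. All 10 differences were positive in that fit (median 2.28). DESeq2 on the same libraries called 5 of the 10 higher in neutrophils, beside 10.8% of all genes tested. In the knockout libraries alone 3 of 10 were called higher in neutrophils, with a median of 0.34, beside 15.6% of all genes tested. The interaction of genotype and population did not pass for Mpo (log2 −4.12, edgeR adjusted p 0.30), Elane (−4.50, adjusted p 0.23) or Prtn3 (−2.59, adjusted p 0.38). Over all genes 4 passed it, the Y-linked genes above, beside 2173 at an unadjusted p under 0.05.

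**Figure D2:**
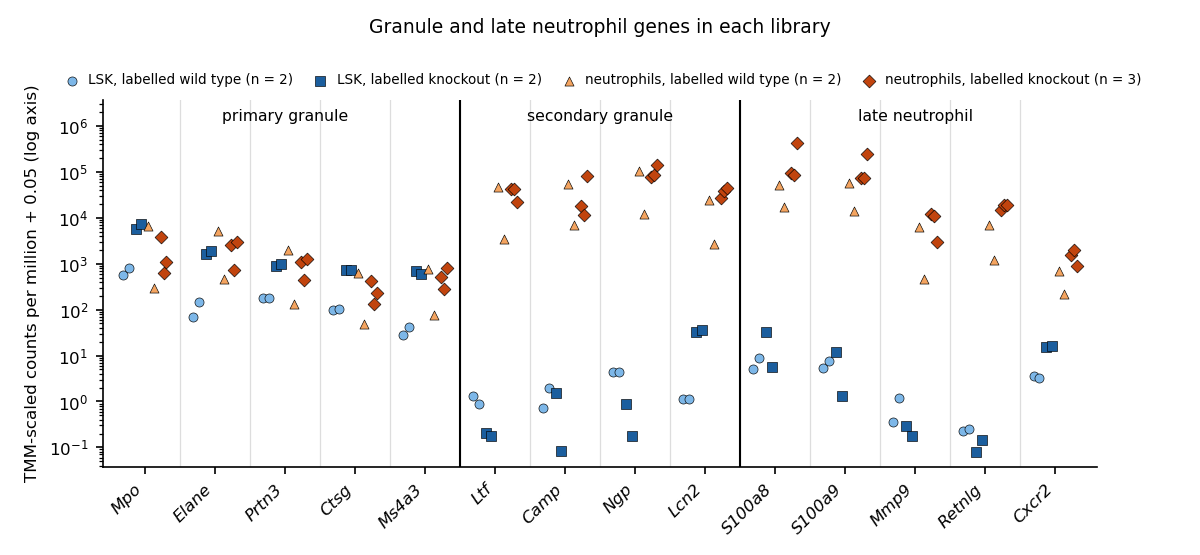
TMM-scaled CPM plus 0.05 (log axis) of primary-granule, secondary-granule and late neutrophil genes, 1 point per library. Points of LSK cells and neutrophils overlap for Mpo to Ms4a3 and lie apart from Ltf to Cxcr2.

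The phagocyte oxidase was higher in neutrophils. Of 7 tested members of 8, 6 were called, with a median of 4.25, and Rac1 was not called. Cybb, the catalytic subunit, was at 3.79, 4.71, 48.1 and 60.6 CPM in LSK cells and at 2338, 1026, 3717, 2940 and 2152 CPM in neutrophils (log2 6.96, SE 0.77). Its partner Cyba (log2 4.77) and the cytosolic organiser Ncf1 (4.35) passed as well. Rac2, the haematopoietic small GTPase of the complex, was at 326, 302, 261 and 305 CPM against 5222, 1498, 4977, 4735 and 5444 CPM (log2 3.82, SE 0.44).

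Stem cell genes made the opposite pole. Of 25 transcriptional regulators 18 were higher in LSK cells and none in neutrophils, with a median log2 difference of −4.09, and of 22 tested surface and niche genes of 23, 17 were higher in LSK cells (median −5.69). Mecom (chr3:29951296-30548008), a zinc finger regulator of stem cell maintenance, was at 43.1, 48.7, 19.4 and 18.0 CPM in LSK cells and had 1 read over the 5 neutrophil libraries, a pooled ratio of 2757 with a 95% counting interval of 495 to 108929. Meis1, the homeobox partner of Hox proteins, was at 215, 227, 108 and 121 CPM against 0.98, 0.75, 1.50, 2.13 and 1.07 CPM (log2 −6.99, SE 0.45, edgeR adjusted p 2.2e-05). Hlf was at 175, 164, 65.1 and 72.2 CPM against 6.89, 0.09, 5.02, 2.74 and 2.42 CPM (log2 −4.92, SE 0.84), and Gata2 at 159, 175, 106 and 110 CPM against 3.96 CPM or less. In each of these genes the 2 wild-type LSK libraries were above the 2 knockout ones, and all 4 were above every neutrophil library.

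Angpt1, angiopoietin-1, was at 489, 375, 177 and 187 CPM in LSK cells and at 0.98 CPM or less in neutrophils (log2 −9.76, SE 0.53), and the adhesion G protein-coupled receptors Adgrg1 and Adgrl4 differed by −8.01 and −7.77. Flt3, a receptor of early multipotent and lymphoid-primed progenitors, was at 440, 447, 162 and 181 CPM against 11.5, 149, 1.15, 0.98 and 1.16 CPM (log2 −5.22, SE 1.19, edgeR adjusted p 0.0061). The 149 CPM were in WT-2, the library with the high B cell, T cell and dendritic cell markers, and without a genotype term the call was lost (log2 −3.22, adjusted p 0.084).

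Some regulators with roles in both compartments did not differ 4-fold with TMM scaling. Runx1, the core-binding factor subunit, was at 100, 95.3, 99.2 and 97.6 CPM in LSK cells and at 48.3, 53.4, 63.2, 55.5 and 56.4 CPM in neutrophils, a log2 difference of −0.84 (SE 0.16) that reached −2.09, past 4-fold, with library totals alone. Fli1, an ETS factor, was at 149, 148, 147 and 162 CPM against 178, 97.7, 244, 199 and 201 CPM (log2 0.21, 95% interval −0.34 to 0.75), and Erg at 15.7, 17.5, 8.91 and 7.42 CPM against 17.6, 1.45, 12.6, 29.2 and 14.6 CPM. Runx1 and Fli1, like Irf8, Myb, Myc, Il1r2 and Il1rap further on, were chosen after their values were seen.

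Of 28 myeloid and immediate-early factors, 19 were higher in neutrophils, 2 were higher in LSK cells and 7 were not called (median 3.31). Cebpe, the C/EBP factor required for secondary granules, was at 1.12, 1.81, 14.1 and 14.3 CPM in LSK cells and at 1047, 75.5, 451, 489 and 578 CPM in neutrophils (log2 6.55, SE 1.08). Cebpb was at 22.0, 24.7, 52.9 and 63.2 CPM against 928, 367, 1041, 1140 and 659 CPM, and Spi1, which encodes PU.1, at 154, 148, 163 and 171 CPM against 1609, 554, 1326, 1915 and 1200 CPM (log2 3.01, SE 0.37, and 1.68 with library totals alone). Cebpa, Gfi1 and Irf8, other factors of myeloid development, did not pass. Cebpa was at 24.8, 27.5, 57.3 and 65.0 CPM against 101, 33.4, 28.2, 44.8 and 19.8 CPM (log2 0.03, 95% interval −1.18 to 1.24). Gfi1 differed by −0.04 (interval −1.22 to 1.14) and Irf8 by −0.36 (interval −2.46 to 1.74).

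The 2 genes of that list higher in LSK cells were Myb and Myc. Myc was at 457, 503, 650 and 639 CPM in LSK cells and at 64.2, 59.6, 36.9, 24.7 and 12.5 CPM in neutrophils (log2 −3.94, SE 0.45, edgeR adjusted p 0.00026), and Myb at 333, 366, 438 and 430 CPM against 66.6, 8.40, 59.4, 42.0 and 37.8 CPM. Mycn was at 63.8, 67.4, 52.9 and 46.8 CPM against 0.34 CPM or less. Mxd1, whose product pairs with Max in place of Myc, went the other way, at 18.6, 19.8, 17.0 and 16.0 CPM against 1190, 167, 1641, 1562 and 1276 CPM (log2 5.87, SE 0.67). The groups did not overlap in any of these 4 genes.

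**Figure D3:**
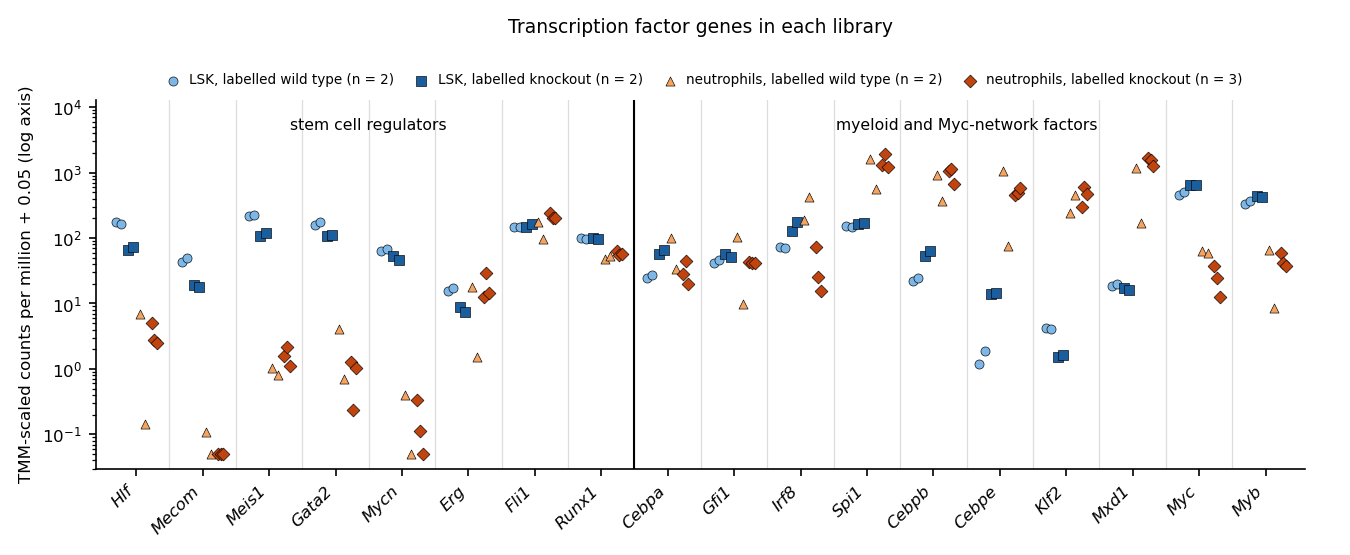
TMM-scaled CPM plus 0.05 (log axis) of transcription factor genes, 1 point per library, with stem cell regulators left and myeloid and Myc-network factors right. Mecom reads were near 0 in neutrophils while Fli1 points overlapped, and Myc and Mxd1 were separated in opposite directions.

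Most genes of ribosome assembly were lower in neutrophils, and few ribosomal protein genes were called. Of 30 ribosome biogenesis genes 24 were higher in LSK cells and none in neutrophils (median −2.52), beside 14.8% and 12.6% of all genes tested. Gnl3 was at 126, 121, 170 and 144 CPM in LSK cells and at 10.1, 23.2, 9.41, 5.73 and 3.94 CPM in neutrophils (log2 −3.85, SE 0.46, edgeR adjusted p 0.00031). Dkc1, dyskerin, differed by −3.33 and Nop58 by −2.54, while Ncl, nucleolin, was near the threshold at −2.05 and lost its call under 10 alternatives, among them RLE size factors (−1.98), leaving out LSK KO-1 (−1.89) and leaving out neutrophil KO-3 (−1.82). With WT-1 as the only neutrophil library the median was −1.93, under 4-fold. In the knockout libraries alone 28 of 30 were called higher in LSK cells (median −3.13), beside 17.7% of all genes tested. DESeq2 on the wild-type libraries called 5 of 30 (median −1.43), beside 8.07% of all genes tested. Of 73 tested ribosomal protein genes, 1 was called in each direction, Rps27 (log2 3.05) and Rpl15 (log2 −2.30), with a median of 0.14. That median turned sign under several settings. It was, for example, −0.19 without neutrophil WT-2, −0.05 without KO-3, −0.54 without both, −0.45 with voom weights and −1.13 with library totals. With library totals 9 of the 73 were higher in LSK cells, beside 34.2% of all genes tested. Ribosomal protein genes have many processed copies, and their summed level was only 4682 to 15520 CPM per library, so their values are uncertain.

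Few genes of cell division were called. Of 28 mitosis genes 1 was higher in neutrophils, Ube2c (log2 2.37), and none in LSK cells (median 0.60), beside 12.6% and 14.8% of all genes tested. Of 30 DNA replication genes 2 were higher in LSK cells, Hells (log2 −2.24) and Ung (log2 −2.11), with a median of −0.97. Mki67 was at 42.0, 45.4, 72.3 and 33.8 CPM in LSK cells and at 186, 48.0, 177, 232 and 75.3 CPM in neutrophils (log2 1.52, SE 0.47, edgeR adjusted p 0.024), which was under 4-fold. Without WT-2 and KO-3 Mki67 was called, at 2.08. Mcm2, a subunit of the replicative helicase, was at 231, 223, 399 and 444 CPM against 193, 43.7, 144, 80.7 and 68.9 CPM (log2 −1.59, SE 0.45), and was called without neutrophil WT-1 (−2.23). With library totals alone 19 of 30 replication genes and 1 of 28 mitosis genes were higher in LSK cells, beside 34.2% of all genes tested. These counts rest in part on neutrophil WT-1: without it 9 of 30 replication genes were higher in LSK cells (median −1.39), and 0 of 28 mitosis genes were called (median 0.02). Since mitosis genes were read in the neutrophil libraries beside the late neutrophil genes, the cells are called Ly6G-positive rather than mature neutrophils here. Cdkn2d, a CDK inhibitor, was at 46.7, 43.8, 37.0 and 40.0 CPM against 459, 150, 534, 533 and 827 CPM (log2 3.44, SE 0.45). It was 1 of 9 genes called higher in neutrophils among 19 quiescence and inhibitor genes, beside 12.6% of all genes tested.

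**Figure D4:**
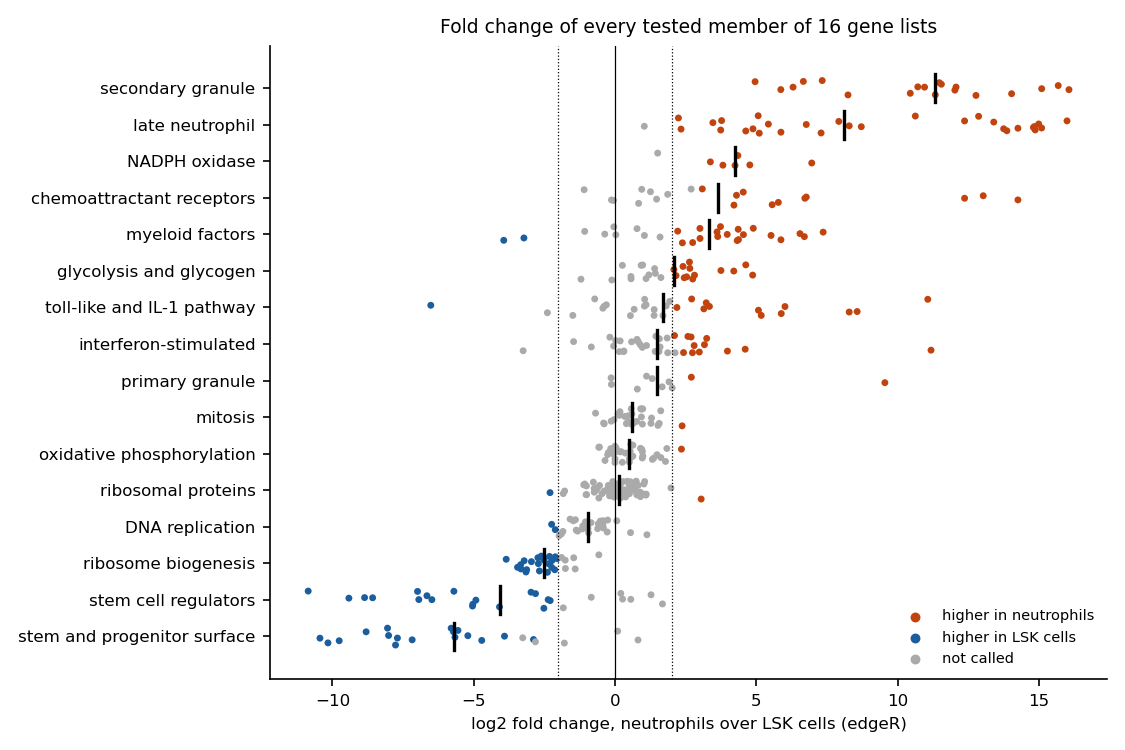
Log2 fold change (neutrophils over LSK cells, edgeR) of every tested member of 16 lists, 1 point per gene, with the median as a black bar and dotted lines at 4-fold in either direction. Grey points beyond the dotted lines missed the adjusted p threshold, and the medians run from −5.69 for stem and progenitor surface genes to 11.33 for secondary-granule genes.

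Of 29 tested genes of the toll-like receptor and interleukin-1 pathway, 12 were higher in neutrophils and 1, Il1r1, was higher in LSK cells (median 1.70). The shares of all genes tested were 12.6% and 14.8%. Il1r1, the signalling receptor of interleukin-1 (chr1:40225080-40317257), was at 79.3, 70.6, 77.6 and 68.5 CPM in LSK cells and at 0.06, 1.59, 0.46, 0.73 and 1.16 CPM in neutrophils (log2 −6.52, SE 0.65, edgeR adjusted p 0.00014). Il1r2, the decoy receptor, lies beside it (chr1:40074079-40125231) and was at 3.51, 4.54, 2.27 and 2.37 CPM against 420, 195, 1546, 3860 and 2548 CPM (log2 8.29, SE 1.05). Il1rn, the receptor antagonist, was at 0, 0, 0.40 and 0.26 CPM against 212, 129, 277, 421 and 585 CPM, and the ligand gene Il1b at 1.30 CPM or less against 94.9, 219, 159, 160 and 102 CPM. The shared subunit Il1rap was not called (log2 0.68, 95% interval −0.14 to 1.49). The receptor gene and the 3 other genes of this set that were called thus lay on opposite sides, and none of the 4 overlapped between populations.

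Receptors of microbial products were in part higher in neutrophils. Tlr13 was at 1.07 CPM or less in LSK cells and at 153, 172, 421, 481 and 186 CPM in neutrophils (log2 8.57, SE 0.74), Cd14 differed by 6.01 and Tlr2 by 2.71. Tlr4 was at 28.3, 26.3, 34.4 and 35.1 CPM against 49.7, 19.7, 161, 94.1 and 73.7 CPM and was not called (log2 1.05, SE 0.41, edgeR adjusted p 0.055). Myd88, the adaptor of these receptors and of the interleukin-1 receptor, was at 47.6, 45.8, 90.5 and 104 CPM against 251, 182, 434, 532 and 346 CPM (log2 2.19, SE 0.22). In both populations the knockout libraries were above the wild-type ones for Myd88, and the interaction of genotype and population did not pass (log2 −0.04, edgeR adjusted p 1.0). With library totals alone Myd88 and Tlr2 fell short of 4-fold, at 0.92 and 1.46.

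**Figure D5:**
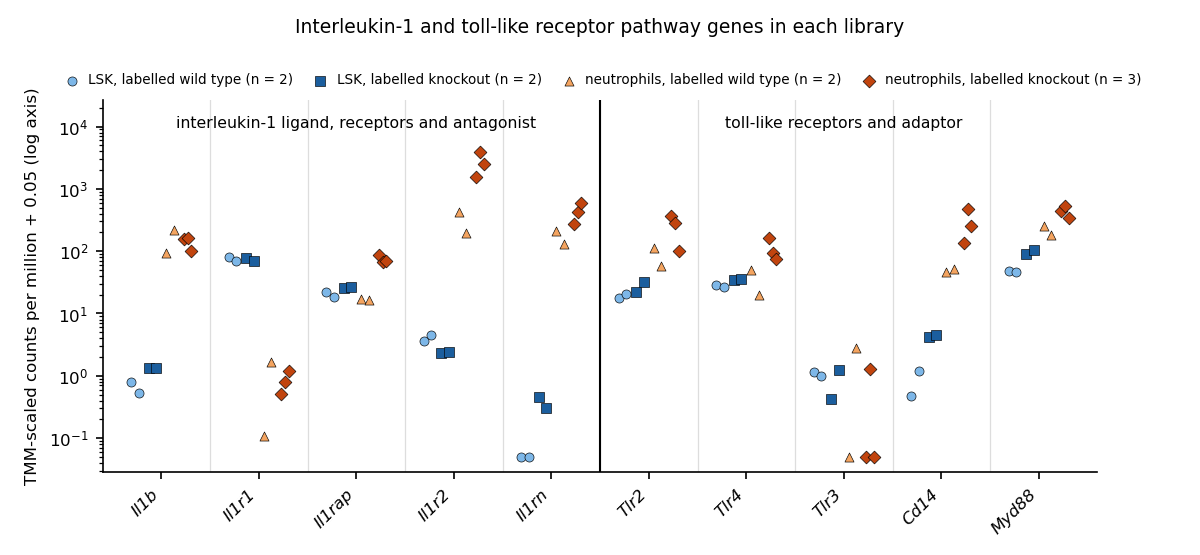
TMM-scaled CPM plus 0.05 (log axis) of interleukin-1 and toll-like receptor pathway genes, 1 point per library. Il1r1 points are higher in LSK cells, Il1r2 and Il1rn points are higher in neutrophils, and Il1rap and Tlr4 points overlap.

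Receptors that guide neutrophils were higher in them. Of 20 tested chemoattractant receptors 11 were called in this direction and none in the other (median 3.65), beside 12.6% and 14.8% of all genes tested. Fpr2, a formyl peptide receptor, had 2 reads over the LSK libraries and was at 238, 73.8, 545, 678 and 1094 CPM in neutrophils, a pooled ratio of 30212 with a 95% counting interval of 8363 to 249478. C5ar1, the complement C5a receptor, was at 0.31 CPM or less in LSK cells against 1230, 236, 1901, 1923 and 1608 CPM (log2 13.03, SE 0.77), and Cxcr2 at 3.54, 3.27, 15.1 and 16.5 CPM against 683, 221, 1537, 1956 and 913 CPM. Cxcr4, the marrow retention receptor, was at 66.7, 60.9, 39.5 and 48.9 CPM against 213, 148, 112, 106 and 144 CPM, a difference of 1.47 (SE 0.21) that was under 4-fold. Csf3r, the receptor of granulocyte colony-stimulating factor, was at 114, 114, 110 and 112 CPM in LSK cells and at 559, 275, 850, 891 and 468 CPM in neutrophils (log2 2.34, SE 0.35, and 1.05 with library totals alone).

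In the glycolysis and glycogen list 13 of 25 genes were higher in neutrophils and none in LSK cells (median 2.08). With library totals alone 4 of 25 were higher in neutrophils, beside 6.54% of all genes tested. Without neutrophil WT-1 6 of 25 were (median 1.71), beside 13.3% of all genes. Pygl, glycogen phosphorylase, was at 65.3, 66.4, 68.7 and 81.4 CPM in LSK cells and at 1677, 255, 3095, 3667 and 1976 CPM in neutrophils (log2 4.63, SE 0.65). G6pdx and Pgd, the oxidative enzymes of the pentose phosphate pathway, differed by 4.20 and 3.75, and Pfkfb4 by 4.87. Of 38 oxidative phosphorylation genes 1, Ndufa1, was higher in neutrophils and none in LSK cells (median 0.51).

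Of 15 genes of the lamina and nuclear shape 4 were higher in neutrophils, beside 12.6% of all genes tested: Syne1, Sun2, Syne2 and Padi4. Padi4 is also a member of the late neutrophil list. Syne1, a nesprin that ties the nucleus to the cytoskeleton, was at 0.67, 0.82, 0.40 and 0.58 CPM in LSK cells and at 150, 21.0, 166, 239 and 129 CPM in neutrophils (log2 7.68, SE 0.77). Its inner membrane partner Sun2 differed by 4.04 (SE 0.46). The lamin B receptor gene Lbr, which is needed for nuclear lobes, was at 456, 457, 607 and 694 CPM against 868, 278, 2156, 1293 and 1250 CPM and was not called (log2 0.83, 95% interval −0.07 to 1.73), and Lmnb1 differed by 0.16.

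Of 25 chromatin modifiers 3 were higher in LSK cells and 2 in neutrophils, which are shares no larger than the 14.8% and 12.6% of all genes tested. Single members are therefore given only as values of those genes. Dnmt3b, a de novo DNA methyltransferase, was at 61.2, 64.7, 53.4 and 47.6 CPM in LSK cells and at 3.62, 4.48, 2.08, 1.58 and 2.87 CPM in neutrophils (log2 −4.27, SE 0.26, edgeR adjusted p 2.0e-05). Tet1 differed by −3.61 (SE 0.88) and, with WT-1 as the only neutrophil library, by −1.67. Among 15 tested genes of the BCL2 family 4 were higher in neutrophils and 1 in LSK cells, beside 12.6% and 14.8% of all genes tested. Mcl1, 1 of the 4, was at 241, 252, 212 and 228 CPM against 735, 841, 1554, 1452 and 1542 CPM (log2 2.27, SE 0.29). The difference of Mcl1 fell to 1.02 with library totals alone, to 1.62 with WT-1 as the only neutrophil library and to 1.75 with DESeq2 on the wild-type libraries. Bcl2 was at 66.0, 57.6, 69.5 and 70.2 CPM against 5.85, 94.6, 3.06, 1.28 and 3.85 CPM, so that WT-2 alone was above the LSK libraries. It was not called over all libraries (log2 −2.87, SE 1.13, edgeR adjusted p 0.058) and was called without WT-2 (log2 −4.12, adjusted p 8.6e-05), as it was without LSK WT-1 (−3.65) or LSK WT-2 (−3.66).

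Of 36 interferon-stimulated genes 12 were higher in neutrophils and none in LSK cells (median 1.50), beside 12.6% and 14.8% of all genes tested. With library totals alone 3 were higher in neutrophils and 2 in LSK cells, beside 6.54% and 34.2% of all genes. In the knockout libraries alone 20 were higher in neutrophils, beside 15.6% of all genes. In the fit with neutrophil WT-1 as the only neutrophil library the median was 0.62. The summed levels were 1629, 1673, 2112 and 2453 CPM in LSK cells, below every neutrophil library.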

How the data were processed

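Bulk RNA-seq was measured in 9 libraries (RNeasy Micro and SMART-Seq v4, per the labels' protocols). The authors deposited raw counts per gene in one table per population, and normalized signal values that matched the raw count divided by 1 factor per library, within 1%, for 99.9% or 100% of genes and were used only for that check. Tools listed in the submitters' processing notes are STAR, featureCounts, bcl2fastq and DESeq2, without versions, and builds mm10 and GRCm38. No source used here states whether counting used strand. The tables were joined by gene symbol through GENCODE M21: 35229 genes were shared, 795 of them through an older name, holding 95.3% to 99.5% of each library's counts. Genes passing filterByExpr were fitted with edgeR 4.0.16 (R 4.3.3; glmQLFit robust, TMM, genotype plus population) with Benjamini-Hochberg adjustment, and an interaction was fitted separately. DESeq2 1.42.0 and limma 3.58.1 served as alternatives, and the fit was tested on simulated data. Named genes are the sort markers and Spop, the 15 largest separated calls in each direction, the first 6 and the 4 of smallest p in each list, and the 5 most abundant per library. Of these, those that carry a comparison are described. Members and lists were chosen with earlier results of these data known. Intervals of pooled ratios cover counting error only. Exons shared with another gene reach 69% for Itgam, 15% for Mpo and 11% for Myd88, where reads cannot be assigned with certainty. Deviations from the group mean were nearly uncorrelated between libraries of the same replicate number (0.037 in wild type, −0.035 and 0.038 in knockout). With 2 or 3 libraries per group this cannot tell whether the numbers pair libraries, and the main fit did not pair them. Results for a few single genes are not reported here.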

Additional observations from a re-analysis of the deposited data

Results flagged for a closer look

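Over 226 sets of values (genes taken from the named lists, most of them described above, and the marker sums, each on the scale log2 of CPM plus 1, and 3 library measures, in the 4 LSK and in the 5 neutrophil libraries), 18 held 1 library far from the others by Dixon's criterion. Chance flags about 1 in 20. Neutrophil WT-2 was that library in 15 of the 18. It was the low one for Ngp (12036 CPM), Lcn2 (2717), Ncf1 (288), Rac2 (1498), Myb (8.40), Mxd1 (167), G6pdx (218), Syne1 (21.0), C5ar1 (236), Hk3 (91.8), Pgd (363), Pfkfb4 (70.9) and the mast cell and basophil markers (360 CPM in sum). Most of the mast cell and basophil sum was Hdc, which is also in the late neutrophil list. Hdc was at 234 CPM in WT-2, and at 1159, 1293, 1201 and 1422 CPM in WT-1, KO-1, KO-2 and KO-3. Cma1, of the same marker set, went the other way, at 42.6 CPM in WT-2 and 0.06 CPM or less in those libraries. Neutrophil WT-2 was the high one for Cd27 (23.7 CPM) and for dendritic cell and MHC class II markers (41264 CPM in sum). The other 3 were Mecom in neutrophil WT-1 (0.057 CPM, which is 1 read), Fli1 in LSK KO-2 (162 CPM against 147 to 149) and Bcl2l1 in LSK KO-1 (22.4 CPM against 27.0 to 27.6).

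The neutrophil against LSK difference differed between knockout and wild type for Ddx3y (interaction, knockout minus wild type, 10.63 on the log2 scale, edgeR adjusted p 0.0054), Eif2s3y (11.58, adjusted p 0.0054), Uty (11.35, adjusted p 0.0054) and Kdm5d (11.17, adjusted p 0.019). All 4 are Y-linked and were at or near 0 in both wild-type neutrophil libraries, so that the positive terms stand for a strongly negative difference in the wild type.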

How the results depend on the processing

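Counts of genes called higher in neutrophils and in LSK cells were 1742 and 2051. They were 904 and 4722 with library totals alone, 1043 and 1178 with a filter of at least 10 CPM in a whole group, 896 and 828 with glmTreat against log2 of 2, 1117 and 1337 with a log2 threshold of 3, and 2871 and 3369 with a threshold of 1. Leaving out 1 library at a time gave 1548 to 2007 and 1713 to 2606 genes, the upper ends without neutrophil WT-2. The wild-type libraries alone gave 0 and 0 with edgeR (1272 and 1231 at an unadjusted p under 0.05 and 4-fold, smallest adjusted p 0.051), while DESeq2 on the same libraries, added after seeing the data, gave 1429 and 1065. Upper-quartile, RLE, no filter, DESeq2, voom, no genotype term, knockout libraries alone and protein-coding genes alone kept both counts within 1.5 times. The replicate block gave 1487 and 1759 genes. No called gene changed its fitted sign except 14 in the fit of neutrophil WT-1 against wild-type LSK (the 26 given above come from differences of log2 CPM, with no fit), 2 without WT-2 and KO-3, and 1 with DESeq2 on the wild-type libraries.

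The interaction passed for 4 genes. It passed for 13 without neutrophil WT-2, for 0 with the replicate block (1737 at an unadjusted p under 0.05), and, added after seeing the data, for 0 with the X and Y chromosomes left out (2114 unadjusted) and for 1043 with DESeq2. The cause of the gap between edgeR and DESeq2 was not tested.

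Among results called in either fit, signs turned in neutrophil WT-1 against the wild-type LSK libraries, where the lone library is assumed to vary like the LSK ones, for Ly6a (−4.41), Mpo (3.31), Ctsg (2.69), F11r (−4.43), Ccl3 (−2.66), Ccl4 (−3.75) and Traf1 (−0.35). They also turned for Thy1 with voom weights (−3.64), for Irf8 with DESeq2 on the wild-type libraries (2.16), and for the medians of the cytokine receptor (−0.037) and quiescence (−0.069) lists with library totals alone. List medians under 1 in size also turned with library totals: mitosis (−0.75), oxidative phosphorylation (−0.82), BCL2 family (−0.43), lamina (−0.99), ribosomal proteins (−1.13), adhesion (−1.20), Spop ligase (−0.90) and sort markers (−0.29). Medians of the sort marker, adhesion, ribosomal protein and ER folding lists turned under other settings too, from −4.04 for the sort markers in the WT-1 fit to 0.56 for ER folding with DESeq2 on the wild-type libraries. The DNA replication median was 0.097 with WT-1 as the only neutrophil library. The cause was not tested. Depth limits the genes with few or no reads in a population, and of these Ly6g, Mecom and Fpr2 were given above with a bound or counting interval. Other such genes, among them Retnlg, Stfa1, Stfa2l1, Il1rn and C5ar1, were given without one. Whether depth limits further results was not tested.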
